A study of Mus musculus with 15 samples.

Results

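A set of 10 named genes of the actin cytoskeleton that blood cells express at high levels was followed through the RNA of circulating extracellular vesicles (EVs). They were chosen by symbol from the 43472 genes of the count tables and are Actb, Actg1, Pfn1, Cfl1, Tpm4, Myl6, Myl9, Myl12a, Flna and Tln1, and all 10 were found in the tables of all 15 libraries. The libraries came from 3 samples of wild type (WT) C57BL/6 mice, 6 samples of dystrophic (Dys) Sgcb null mice, which lack beta-sarcoglycan, and 6 samples of hypertrophic (Hyp) mice. The labels give the hypertrophic mice as MAGIC F1 and the study's methods for the same libraries name Mstn-null mice, so Hyp stands here for the condition alone. The EVs were spun from the plasma (serum in the labels) of mice 3 to 6 months old, 2 to 3 mice were pooled per sample, and the RNA was amplified before sequencing. For Dys replicates 4 to 6 and Hyp replicates 1 to 3, the number in the title of a library and the number of its counts are crossed between the conditions. The labels were followed, and results with these 6 libraries exchanged are given where they change a statement.

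Actin monomers polymerise into the filaments that shape platelets, leukocytes and other cells, and in most non-muscle cells the monomer pool consists of beta-actin, from Actb, and gamma-actin, from Actg1. Profilin, from Pfn1, feeds monomers to growing filament ends, cofilin, from Cfl1, severs old filaments, and tropomyosin, from Tpm4, lies along filaments and controls which other proteins bind. Non-muscle myosin pulls on filaments with the help of an essential light chain, from Myl6, and regulatory light chains, from Myl9 and Myl12a. Filamin, from Flna, crosslinks filaments and ties them to membrane receptors, and talin, from Tln1, links filaments to integrins and activates them. Platelets depend on this machinery for shape change and clot retraction and shed many vesicles into blood.

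The actins are close copies of each other, which matters for any count of their reads. The first 60 coding bases (GENCODE M21 transcripts, mm10, coding strand) show how they differ, with the 9 bases that differ between the genes in capitals:
Actb: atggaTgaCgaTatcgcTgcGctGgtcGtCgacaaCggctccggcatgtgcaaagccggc
Actg1: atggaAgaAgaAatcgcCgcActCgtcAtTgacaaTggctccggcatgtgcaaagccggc
Over the 1128 coding bases the actins were 88.7% identical, while 4 of the 375 residues they encode differed. The regulatory light chains are related in the same way, and 12 of the first 60 coding bases, in capitals, differ between Myl9 and Myl12a:
Myl9: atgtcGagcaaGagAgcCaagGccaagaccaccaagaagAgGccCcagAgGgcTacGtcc
Myl12a: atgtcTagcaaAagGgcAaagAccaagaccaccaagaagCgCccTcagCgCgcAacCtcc
The coding sequences of Myl9 and Myl12a were 85.5% identical in bases, and those of Myl12a and its neighbour Myl12b were 96.5% identical.

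How much of each gene can be counted without doubt was measured as the share of its 50-base words that also occur in the transcripts of other genes. For Actg1, 45.6% of the words were shared, 41.1% with Gm12715, a gene that received 1 read in all 15 libraries together. For Myl12a the share was 24.5%, mostly with Myl12b, whose reads came to 55.0% of those of Myl12a. The share was 20.7% for Cfl1, which overlaps Snx32 on the other strand, 16.7% for Myl6, 16.1% for Tpm4, 12.2% for Actb and 0.491% for Tln1. No word of Pfn1, Myl9 or Flna was shared. Snx32 had 0 reads in the 15 libraries, but whether strand was used in counting is not given in the sources used here. The levels of Actg1, Myl12a and Cfl1 are thus uncertain in a way that the levels of Pfn1, Myl9 and Flna are not.

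The reads counted on genes ranged from 27227 to 32563362 per library, with medians of 601506 in WT, 2419660 in Dys and 3513267 in Hyp, and between 797 and 8968 genes had a read. Levels are given as CPM, the reads of a gene scaled to the total reads on genes of its library. Where a gene has no read, its true count could still be as high as 3, and this limit, for counting error alone, lay between 0.0921 and 110 CPM depending on the library. WT replicate 1 (27227 reads), Hyp replicate 4 (451013) and Hyp replicate 5 (328710) were the shallow libraries. Markers of blood cells were abundant: the summed level of 10 platelet markers was 11753 to 43242 CPM over the 15 libraries, led by Ppbp and Pf4, that of the erythroid markers 22902 to 155950 CPM and that of the leukocyte markers 1712 to 5753 CPM. Reads of Sgcb, deleted in the Dys mice, were absent from 14 libraries, WT ones included, so its absence cannot check a label. Hyp replicate 3, a crossed library that the exchange would count as Dys, had 695 reads of Sgcb. What these reads mean for its label was not tested. The summed level of 10 skeletal muscle markers lay between 0 and 281 CPM. The counts do not tell from which cells the EVs came, and fewer EVs of a type cannot be told apart from less RNA per EV.

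The 10 genes were present in nearly the whole set of libraries. Of the member and library pairs, 29 of 30 in WT (96.7%), 59 of 60 in Dys (98.3%) and 58 of 60 in Hyp (96.7%) held at least 1 read. Actb, Actg1, Pfn1, Tpm4, Myl6, Myl9 and Tln1 were read in 15 of 15 libraries, that is 7 of 10 members, against 169 of the 13281 genes read anywhere (1.27%) and 143 of the 320 genes with a mean CPM at least that of the lowest member (44.7%). Detection was compared between conditions with Fisher's exact test over all 13281 genes. At an adjusted p under 0.05, 0 genes (0%) were called in Hyp vs WT, 0 (0%) in Dys vs WT and 0 (0%) in Hyp vs Dys, and 18, 75 and 25 genes had an unadjusted p under 0.05, none of them a member. With so few libraries a call would need very many genes at the lowest p that the test can give. Genes read in nearly all libraries cannot differ in it either, so the absence of calls does not show equal detection.

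The exceptions were gaps in which a member had at most 3 reads although the other libraries of the condition predicted more. Cfl1 had 0 reads in Dys replicate 4, where the mean level of the other Dys libraries predicted 1763 reads, and 0 reads in WT replicate 1, where 27.6 were predicted. Myl12a had 1 read in Hyp replicate 3 (866 predicted) and 0 in Hyp replicate 5 (149 predicted). Flna had 1 read in Dys replicate 4 (412 predicted) and 0 in Hyp replicate 4 (290 predicted), and Tln1 had 3 reads in Dys replicate 4 (441 predicted) and 1 in Hyp replicate 5 (209 predicted). These 8 gaps fell on 4 genes and 5 libraries, 3 of them in Dys replicate 4. That library held 1608699 reads but reads of 1103 genes, the fewest among the Dys libraries, where the median was 5136. Hyp replicate 5 had 814 genes and WT replicate 1 had 797. The part of amplification in these gaps was not tested. Sampled down to 27227 reads each, the libraries kept between 7.15 and 10 members on average over 20 draws, with the lowest value again in Dys replicate 4.

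**Figure D1:**
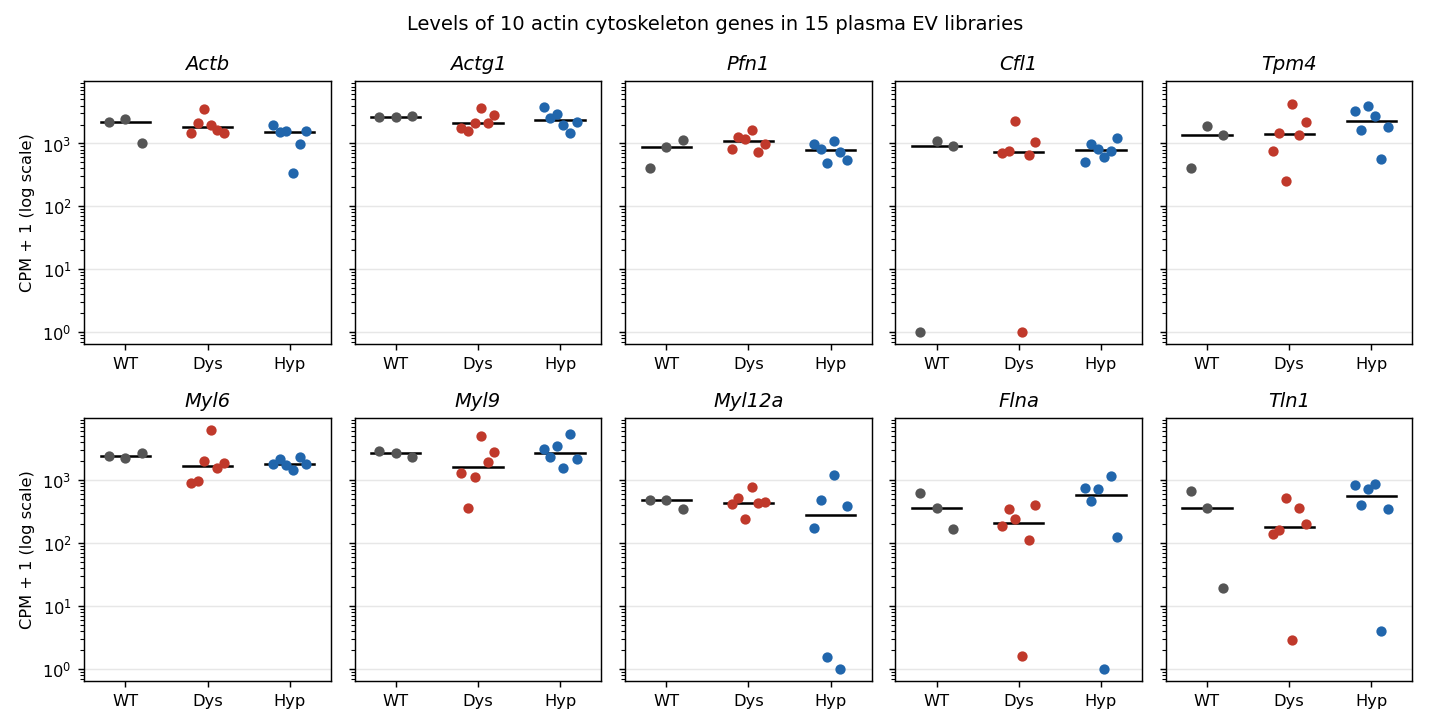
Level of each gene (CPM + 1, log scale) in the 3 WT, 6 Dys and 6 Hyp libraries. Each point is a library, the bars are medians, and the points near the bottom are the libraries with 0 to 3 reads of Cfl1, Myl12a, Flna or Tln1; in the panels of Actb, Actg1, Pfn1, Tpm4, Myl6 and Myl9 no point falls that low.

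Together the 10 genes took a little over 1% of the gene reads in each condition. Their summed level was 13535 ± 1342 CPM (SD, n = 3) in WT, 13392 ± 5504 CPM (SD, n = 6) in Dys and 14070 ± 2241 CPM (SD, n = 6) in Hyp, so the means lay closer together than the libraries of any condition. The WT libraries held 12708, 15083 and 12813 CPM. The Dys libraries ran from 8449 to 23645 CPM with a median of 12217, and the Hyp libraries from 11855 to 17271 CPM with a median of 13385. The highest sum was that of Dys replicate 4, and without it the Dys mean was 11342 CPM. By reads, with no correction for length, Actg1 was the top member in 7 libraries, Myl9 in 3, Actb and Tpm4 in 2 each and Myl6 in 1.

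**Figure D2:**
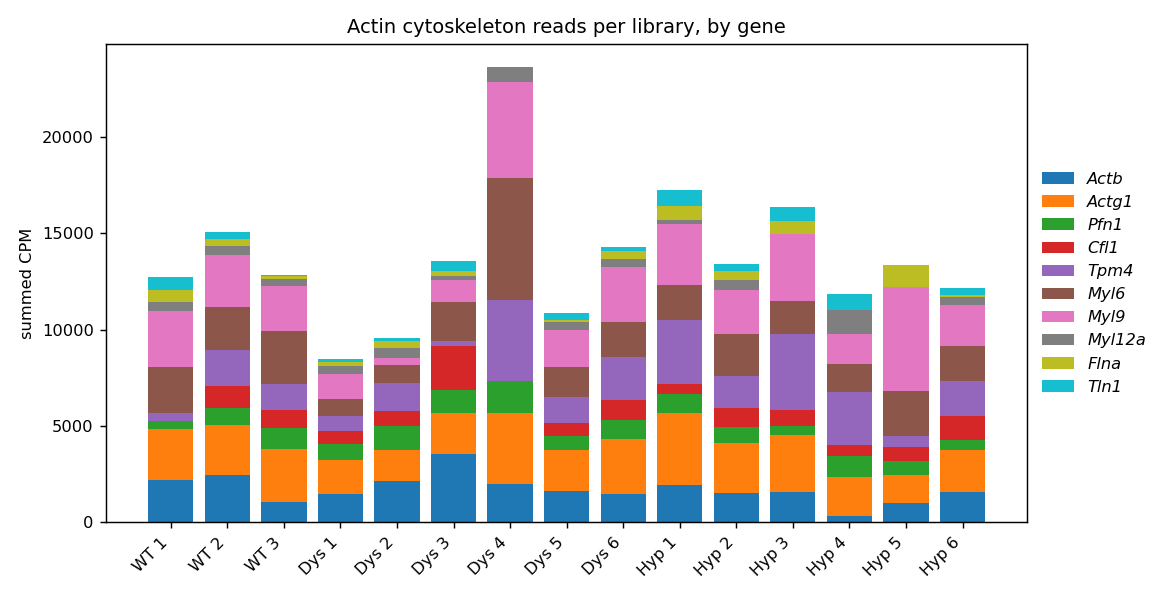
Summed level (CPM, linear scale from 0) of the 10 genes in each of the 15 libraries, stacked by gene. Dys replicate 4 reached 23645 CPM, with 51.2% of it from the light chains Myl6, Myl9 and Myl12a, while the other 14 libraries lay between 8449 and 17271 CPM.

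Per kilobase of transcript, which corrects for length but not for words shared with other genes, the order was led by the light chains Myl6 and Myl9. Myl6 had a mean of 3242 ± 1896 CPM per kb (SD, n = 15) and Myl9 of 2271 ± 1195 CPM per kb. Actg1 (1268 ± 350), Pfn1 (1059 ± 375), Actb (895 ± 383) and Tpm4 (876 ± 577 CPM per kb) followed, with Cfl1 at 351 ± 227 and Myl12a at 221 ± 155 CPM per kb. The long genes Flna (44.6 ± 38.2) and Tln1 (44.4 ± 35.2 CPM per kb) came last. Neighbours in this order often changed places: Actb was above Tpm4 in 8 of 15 libraries and Flna above Tln1 in 7 of 15. The step from Myl9 to Actg1, by contrast, was seen in 13 libraries, and that from Tpm4 to Cfl1 in 13. The step from Myl9 to Actg1 is uncertain all the same, because 45.6% of the words of Actg1 were shared and 0% of those of Myl9.

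Among the actins, gamma-actin was the steadier transcript. Actg1 (ENSMUSG00000062825.15, mm10 chromosome 11 from 120345690 to 120348542, minus strand) had 2644, 2606 and 2761 CPM in the WT libraries. In Dys it ranged from 1595 to 3712 CPM with a median of 2142, and in Hyp from 1445 to 3752 CPM with a median of 2378. The WT values lay within both ranges, although the first of them rested on 72 reads. Actb (ENSMUSG00000029580.14, chromosome 5 from 142903115 to 142906754, minus strand) had 2204, 2455 and 1024 CPM in WT. Its level ranged from 1450 to 3543 CPM with a median of 1795 in Dys, and from 339 to 1928 CPM with a median of 1544 in Hyp. The Hyp libraries reached neither the upper WT values nor the highest Dys values, but the 3 groups overlapped. The mean of Actb was 1317 ± 566 CPM (SD, n = 6) in Hyp, 0.649 times that of 2031 ± 793 CPM (SD, n = 6) in Dys, a difference with p = 0.0931 in an exact two-sided permutation test of the means and an adjusted p of 0.849 over all genes tested.

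The balance between the actins was measured as the share of Actg1 in the reads of both. It was above 50% in 13 of 15 libraries, and the exceptions were Dys replicate 2 at 42.6% (95% Wilson interval 41.6 to 43.7) and Dys replicate 3 at 37.8% (37.0 to 38.5). The highest share was 85.4% (83.1 to 87.4) in Hyp replicate 4, which rested on 153 Actb and 896 Actg1 reads. Where a share stands against 50% is uncertain, because 45.6% of the words of Actg1 and 12.2% of those of Actb were shared. The mean share was 59.7% ± 11.6 (SD, n = 3) in WT, 54.0% ± 11.6 (SD, n = 6) in Dys and 66.2% ± 9.89 (SD, n = 6) in Hyp. The difference between Hyp and Dys was 12.2 percentage points, with an exact two-sided permutation p of 0.0823 and an adjusted p of 0.247 over the 3 comparisons. Hyp differed from WT by 6.55 points (exact p = 0.405, adjusted p = 0.5) and Dys from WT by -5.68 points (exact p = 0.5, adjusted p = 0.5). None of the 3 differences passed the test and the libraries of the conditions overlapped, although the difference between Hyp and Dys was larger than the SD of either. WT against 6 libraries cannot give a p below 0.0238. Within the lower number series of the titles, the Dys shares of 37.8% to 55.1% lay below the Hyp shares of 62.6% to 66.1% (n = 3 each), whereas within the higher series the Dys range of 57.0% to 66.2% overlapped the Hyp range of 58.5% to 85.4%. The Hyp libraries of the lower series and the Dys libraries of the higher series are the crossed ones. With them exchanged, both sides would be Dys in the lower series and Hyp in the higher, so neither series would compare the conditions. The WT libraries belong to the lower series. Without WT replicate 3, whose share was 72.9%, the difference between Dys and WT changed sign to 0.963 points.

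**Figure D3:**
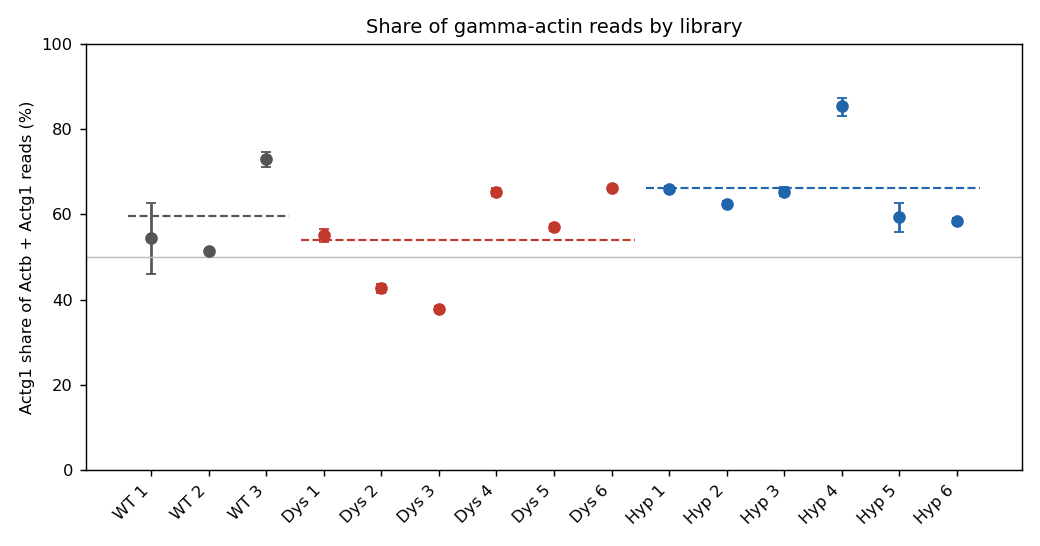
Share of Actg1 in the reads of Actb and Actg1 together (%, y axis from 0 to 100) in each library, with 95% Wilson intervals for counting error; dashed lines are the means of the conditions. The points of Dys spread from 37.8% to 66.2% and those of Hyp from 58.5% to 85.4%, so the conditions overlap.

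Of the genes whose products handle monomers and filaments, Pfn1 varied least, with a coefficient of variation of 35.4% over the libraries. It was 64.7% for Cfl1 and 65.9% for Tpm4. Pfn1 (ENSMUSG00000018293.4, chromosome 11 from 70651850 to 70654644, minus strand) had 404, 879 and 1116 CPM in WT. Its level ranged from 729 to 1637 CPM with a median of 1083 in Dys and from 487 to 1102 CPM with a median of 777 in Hyp. Its mean in Hyp was 0.709 times that in Dys (exact permutation p = 0.0909, adjusted p = 0.849), with overlapping groups. With the 6 crossed libraries exchanged, the ratio of Pfn1 turned to 1.03 (exact permutation p = 0.887). Cfl1 (ENSMUSG00000056201.8, chromosome 19 from 5490455 to 5495201, plus strand) had 0, 1110 and 921 CPM in WT, where the 0 allows up to 110 CPM. It ranged from 0 to 2281 CPM with a median of 738 in Dys and from 508 to 1226 CPM with a median of 787 in Hyp. Outside the libraries at 0, the ranges of the conditions overlapped. Tpm4 (ENSMUSG00000031799.9, chromosome 8 from 72134975 to 72153142, plus strand) had 404, 1891 and 1377 CPM in WT. It spanned 252 to 4216 CPM with a median of 1420 in Dys and 563 to 3935 CPM with a median of 2282 in Hyp, a mean 1.91 times that of WT. With an exact permutation p of 0.190 and an adjusted p of 1, this difference did not pass the test, and the groups overlapped.

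The light chains of non-muscle myosin were among the most abundant members. Myl6 (ENSMUSG00000090841.2, chromosome 10 from 128490860 to 128494145, minus strand) had 2387, 2231 and 2746 CPM in WT. It ranged from 903 to 6334 CPM with a median of 1691 in Dys and from 1459 to 2309 CPM with a median of 1836 in Hyp. In Hyp, 5 of 6 libraries lay below the lowest WT library. The Hyp mean was 0.773 times the WT mean, and the exact two-sided permutation p of 0.0476 was the lowest of any member in any comparison, with an adjusted p of 1 over all genes tested. With the 6 crossed libraries exchanged, the Myl6 ratio of Hyp to WT turned to 1.04 (exact permutation p = 0.714), while that of Dys to WT moved from 0.923 (p = 0.690) to 0.656 (p = 0.0238, the smallest that 84 arrangements can give, adjusted p = 1). Myl9 (ENSMUSG00000067818.6, chromosome 2 from 156775420 to 156781658, plus strand), which is strongly expressed in platelets and smooth muscle, had 2902, 2703 and 2336 CPM in WT. It ranged from 354 to 4974 CPM with a median of 1610 in Dys and from 1545 to 5394 CPM with a median of 2735 in Hyp. The Dys libraries thus reached both lower and nearly as high as the Hyp libraries. The summed level of 5 smooth muscle markers had a median of 1.66 CPM in WT, 205 CPM in Dys and 0 CPM in Hyp. Its highest value in any library was 549 CPM, in Dys. Myl12a (ENSMUSG00000024048.15, chromosome 17 from 70993656 to 71002878, minus strand) had 477, 481 and 347 CPM in WT. It ranged from 236 to 791 CPM with a median of 439 in Dys and from 0 to 1222 CPM with a median of 281 in Hyp, which held both its lowest and its highest library.

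Filamin and talin, the linkers, were the lowest and least even members. Flna (ENSMUSG00000031328.15, chromosome X from 74223461 to 74249820, minus strand) had 624, 366 and 166 CPM in WT. It ranged from 0.622 to 400 CPM with a median of 211 in Dys and from 0 to 1159 CPM with a median of 588 in Hyp. Tln1 (ENSMUSG00000028465.16, chromosome 4 from 43531519 to 43562691, minus strand) had 661, 360 and 18.3 CPM in WT. It ranged from 1.86 to 521 CPM with a median of 178 in Dys and from 3.04 to 856 CPM with a median of 565 in Hyp. For Flna 4 of 6 Hyp libraries, and for Tln1 3 of 6, lay above the highest Dys library, yet both Dys and Hyp also held a library near 0 for each gene. The mean in Hyp was 2.51 times that in Dys for Flna (exact permutation p = 0.108) and 2.32 times for Tln1 (exact permutation p = 0.0844), both with an adjusted p of 0.849. With the 6 crossed libraries exchanged, the edgeR log2 fold change between Hyp and Dys turned from 0.93 to -0.78 for Flna and from 0.97 to -0.66 for Tln1.

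For differences in level, edgeR's quasi-likelihood test was fitted to 6887 genes left by its filter, all 10 members among them. At a Benjamini-Hochberg adjusted p under 0.05, it called 2 genes (0.029%) in Hyp vs WT, 1 gene (0.0145%) in Dys vs WT and 1 gene (0.0145%) in Hyp vs Dys, and 0 of the 10 members in each. At an unadjusted p under 0.05, edgeR gave 8.02%, 2.02% and 12% of the genes and again 0 members. DESeq2 called 15%, 13.5% and 3.53% of the 6887 genes and 0 members, although it gave an adjusted p to only 6244 of these genes. The exact permutation test of mean CPM gave an unadjusted p under 0.05 for 0.784%, 1.26% and 3.15% of the genes in the same order, and an adjusted p under 0.05 for 0% of them in each. The single member among these, Myl6 in Hyp vs WT, stood beside 21 of the 320 genes at least as abundant as the lowest member (6.56%). The permutation p cannot fall below 0.0238 in the WT comparisons or 0.00216 in Hyp vs Dys. After adjustment over 6887 genes, a call would need very many genes at that lowest p, so the 0% could hardly have been otherwise.

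The fitted changes of the members were small beside their intervals. In Hyp vs WT the log2 fold changes ran from -0.68 (Myl6) to 0.59 (Tln1) with a median of -0.29, 3 of 10 being positive. In Dys vs WT they ran from -0.66 (Flna) to 0.34 (Tpm4) with a median of -0.08, and in Hyp vs Dys from -0.79 (Pfn1) to 0.97 (Tln1) with a median of -0.22. The medians over all genes tested were 0.66, 1.38 and -0.52, and without TMM normalization these were 1.02, 1.57 and -0.37. Actg1 and Myl9 had the smallest errors of the members. For Actg1, the change was -0.36 (95% interval -1.999 to 1.27) in Hyp vs WT, -0.17 (-1.82 to 1.48) in Dys vs WT and -0.19 (-1.55 to 1.16) in Hyp vs Dys. In this fit the spread of each gene is tied to a trend over genes. Estimated before the fit, the biological coefficient of variation was 3.04 over all genes. For the members it was between 1.48 (Actg1 and Myl9) and 1.87 (Flna and Tln1). Over the 15 libraries, the CPM of Actg1 had a coefficient of variation of 27.6%. The intervals have the width that a normal distribution gives, so the spread of the member itself had next to no weight in them. They thus rest almost wholly on the spread over all genes. A level lower by 2-fold lay inside the interval of each member in each comparison, and so did one higher by 2-fold except for Actb and Myl6 in Hyp vs Dys, whose upper bounds were 0.92 and 0.96 on the log2 scale.

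**Figure D4:**
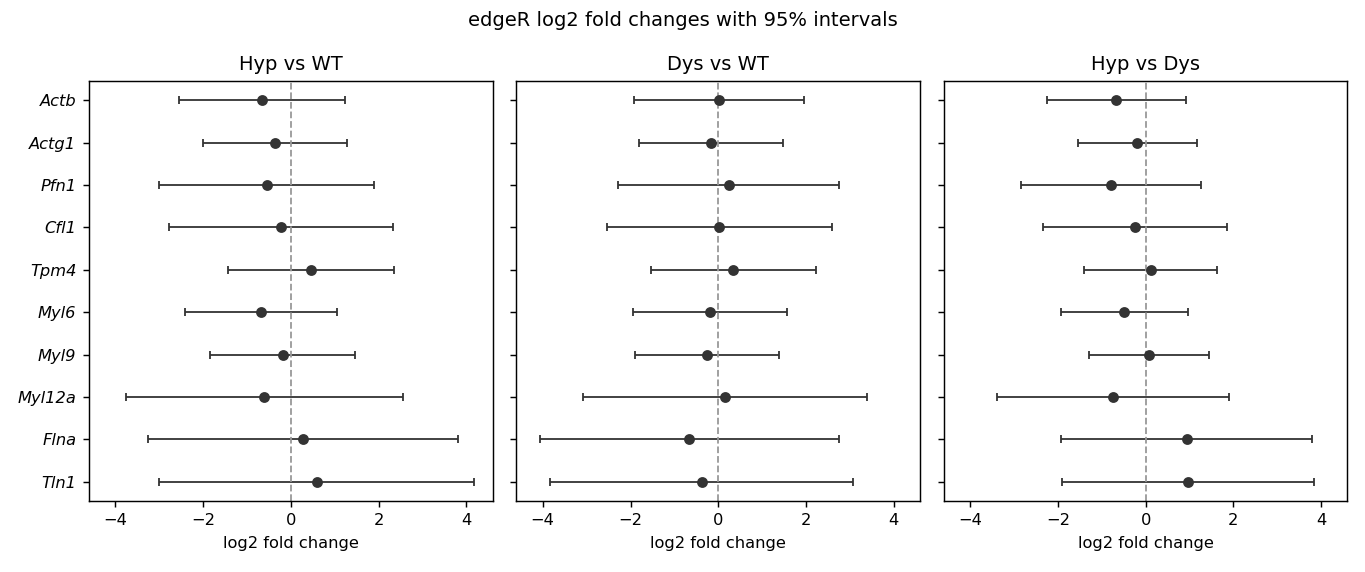
edgeR log2 fold changes (x axis) of the 10 genes in the 3 comparisons; points are estimates and bars 95% intervals. The 30 intervals all include 0, and the widest belong to Flna, Tln1 and Myl12a.

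The members differed most clearly in how evenly they were spread over the libraries. Across the 15 libraries, the coefficient of variation of the CPM was 27.6% for Actg1, 35.4% for Pfn1 and 42.8% for Actb. It was 52.6% for Myl9, 58.5% for Myl6, 64.7% for Cfl1, 65.9% for Tpm4, 69.9% for Myl12a, 79.2% for Tln1 and 85.7% for Flna. Among the 320 genes with a mean CPM of at least 373, the median was 69.0%, Actg1 had the lowest value and Pfn1 came at rank 4, after the ferritin gene Fth1 (32.4%) and the ribosomal protein gene Rpl7 (32.4%). Flna lay above 75% of these genes and Tln1 above 69.1%. By mean CPM they ranked 314 and 320, so nearly all of these genes were more abundant. Their spread was not compared with that of genes of like level. The highest level of Actg1 was 2.60 times its lowest, against 4.05 times for Pfn1, 10.4 times for Actb and 15.2 times for Myl9.

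**Figure D5:**
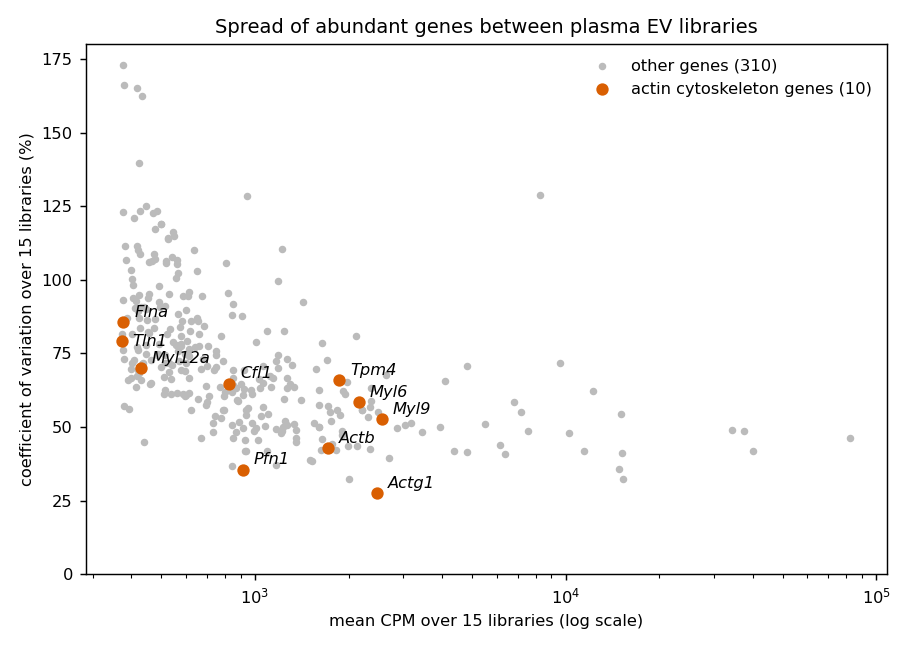
Coefficient of variation of the CPM over the 15 libraries (%, y axis) against the mean CPM (x axis, log scale) of the 320 genes at least as abundant as the lowest member. Actg1, at 27.6%, is the lowest point of all, and Flna, at 85.7%, is the highest of the 10 members.

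Likeness of pattern was measured as the SD, over the 15 libraries, of the log2 ratio of levels (CPM + 1), a description in which depth and composition are shared by the genes. The genes most like Actb were mt-Cytb (0.67), which encodes a mitochondrial cytochrome, Gpx1 (0.70), which encodes a glutathione peroxidase, Eif1 (0.77), a translation initiation factor, Actg1 (0.77) and mt-Nd4 (0.77), a subunit of the respiratory chain, among 168 genes read in every library with a median of 1.35. Without Hyp replicate 4, the value of Actg1 was 0.58. Between members, the closest pair was Actg1 and Myl6 at 0.52, followed by Actg1 and Pfn1 at 0.65 and Myl6 and Myl9 at 0.68. The actins themselves, at 0.77, came behind 4 other member pairs.

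The other genes of the machinery, in lists chosen with earlier results of these data known, also gave no call in any of the 3 comparisons. Of 13 tested genes for filament nucleation, 14 for capping, severing and monomer binding, 10 for bundling, 14 for myosin control and 13 for integrin linkage, 0 passed edgeR's adjusted threshold in either direction. Their median log2 fold changes in Hyp vs WT were 0.50, 0.05, 0.68, 0.39 and 1.19 in this order, beside 0.66 over all genes. The gene with most reads in these lists was Tmsb4x, which encodes the monomer-binding thymosin beta-4, with 51486 ± 15158 CPM (SD, n = 3) in WT, 27344 ± 18663 CPM (SD, n = 6) in Dys and 32535 ± 10323 CPM (SD, n = 6) in Hyp. Its log2 fold change was -0.87 in Hyp vs WT (edgeR adjusted p = 0.267) and -0.76 in Dys vs WT (adjusted p = 0.433). Coro1a, which encodes coronin, followed in the same list (709 ± 430 CPM, n = 15), and Arpc1a (776 ± 627) and Arpc2 (694 ± 399), which encode parts of the Arp2/3 complex, led the nucleation genes. Tagln2 (1059 ± 603 CPM) and Msn (439 ± 398) led the bundling and crosslinking genes, Rac1 (1319 ± 940) and Arhgdib (1140 ± 758) those of myosin control, and Zyx (1338 ± 685) and Parvb (565 ± 579) those of integrin linkage.

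The muscle forms of these genes were rare. Acta1, the actin of skeletal muscle, had 0, 187 and 203 CPM in WT when ordered by size, at most 60.7 CPM in Dys, and a read in 1 of 6 Hyp libraries. Acta2, of smooth muscle, was at 0 reads in the 3 WT libraries and reached 217 CPM in Dys, Actc1 of the heart was read in 3 of 15 libraries and Actg2 in 1, with 8 reads. Myl12b, the neighbour of Myl12a, was read in 12 of 15 libraries with a mean of 222 ± 209 CPM (n = 15). Of the 11 tested relatives of the members, 0 passed the adjusted threshold in any comparison. Of 10 red cell membrane skeleton genes listed, 8 were found under the symbols used. The highest of these were low as well: Slc4a1 had 108 ± 106 CPM and Add1 78.9 ± 84.4 CPM (n = 15). Epb41, not found by that symbol, stands in the tables as Epb4.1, with a higher mean of 621 CPM. The hemoglobin gene Hbb-bs, the gene called in Hyp vs Dys, had 37597 ± 18292 CPM.

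Serum response factor, a known regulator of actin genes, binds a motif named the CArG box. The window from 250 bases before to 50 after the gene start (RefSeq, GRCm38.p6, searched on both strands) held it in 3 of the 9 members with an entry, against 488 of 27025 genes (1.81%). The matches are shown because they are a feature of sequence that the choice of members did not use, with the motif in capitals:
Actg1, chr11:120348551-120348610, minus strand: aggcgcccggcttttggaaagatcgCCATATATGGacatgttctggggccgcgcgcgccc
Myl6, chr10:128493025-128493084, minus strand: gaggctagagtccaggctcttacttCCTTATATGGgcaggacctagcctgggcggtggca
Myl9, chr2:156775278-156775337, plus strand: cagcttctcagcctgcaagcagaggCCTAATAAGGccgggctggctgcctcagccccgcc
The motif began 90 bases before the gene start in Actg1, 50 before the downstream of the starts given for Myl6 and 161 before that of Myl9. The members with a match were the 3 with the highest mean CPM of the 10, and a match is a description of letters, not evidence of binding. Actb is named without a promoter sequence.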

How the data were processed

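RNA-seq counts of EVs from 15 libraries (3 WT, 6 Dys, 6 Hyp) were analysed. According to the study's methods and the submitters' processing notes, single reads of 50 bases were aligned by the authors with TopHat to mm10 and counted with HTSeq. The authors deposited raw counts per gene symbol, without normalization. The HTSeq version, annotation and strand setting are not given in the sources used here, and the library kit differs between labels and methods. The 5 summary rows of each table, 57.9% to 99.2% of its total, were left out, and CPM were computed over gene rows. Depth ran from 27227 to 32563362 reads. Wilson intervals and the limit of a count of 0 (3 counts) cover counting error only. Samples are pools of 2 to 3 mice. Permutation and Fisher p-values rest on differences between such pools, while those of DESeq2 rest also on a spread shared over genes. For edgeR, the spread used was almost wholly the shared one.

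Differential expression used edgeR 4.0.16 in R 4.3.3 (limma 3.58.1) with TMM, filterByExpr, the quasi-likelihood test fitted to the 15 libraries and Benjamini-Hochberg adjustment over 6887 genes. The Actg1 share and, chosen after seeing the data, the mean CPM of all genes tested were tested by exact permutation, two-sided (the smaller one-sided p times 2), and detection with Fisher's exact test (scipy 1.17.1). The tests were checked on simulated data. Alternatives were DESeq2 1.42.0, other normalizations and filters, the conditions compared alone, no mitochondrial or hemoglobin genes, the title series as a covariate, exchanged or left-out crossed libraries, each library left out, minimums of 5, 10 and 50 reads, sampling down and medians. Leaving out the libraries under 500000 reads, and the permutation test of mean CPM with the crossed libraries exchanged, were added after the data were seen.

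The members, gene lists and tests were chosen with earlier results of these data known. Named in the text are the 10 members, in each other list the genes called in any comparison and the 2 highest by mean CPM, the paralogs Acta1, Acta2, Actc1, Actg2 and Myl12b, and the 5 genes most like Actb. Epb4.1 is named as well, because its list gave it by another symbol. Gene positions and transcripts are from GENCODE M21 on the mm10 build, promoters from RefSeq.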

Additional observations from a re-analysis of the deposited data

Results flagged for a closer look

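In the 24 groups of 6 libraries examined (the 10 genes, their sum and the Actg1 share in Dys and in Hyp), 3 values lay farther from the rest than Dixon's 95% limit, where chance alone gives about 1 in 20 groups. Actb reached 3543 CPM in Dys replicate 3, while the next Dys library had 2145 CPM. Myl6 reached 6334 CPM in Dys replicate 4, while the next had 2021 CPM. That library also had the fewest genes with a read in Dys (1103) and gaps in Cfl1, Flna and Tln1, and the part of these in the value of Myl6 was not tested. The Actg1 share was 85.4% in Hyp replicate 4, against 66.1% in the next Hyp library. Its Actb level rested on 153 reads, and its depth of 451013 reads was the second lowest of the Hyp libraries.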

How the results depend on the processing

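No paired analysis was possible because the replicate numbers follow the order of deposit and pair no libraries. Under each of the 28 alternatives 0 members were called, and the lowest adjusted p of a member was 0.619, for Tpm4 in Dys vs WT with edgeR and without WT replicate 2. The number of genes called moved from 2, 1 and 1 (Hyp vs WT, Dys vs WT, Hyp vs Dys) to 1031, 933 and 243 with DESeq2, to 0, 0 and 0 without a filter on low counts or without mitochondrial and hemoglobin genes (which removes the genes called), and to 0 to 6 elsewhere: 3 in Dys vs WT without TMM, 2 in Dys vs WT and 0 in Hyp vs Dys with the 6 libraries exchanged, 3 and 0 with the 9 matching libraries, and 4 and 6 without the libraries under 500000 reads. Leaving out each library in turn gave 1 to 3 genes in Hyp vs WT (1 without WT replicate 2, Dys replicates 1, 2 or 5 or Hyp replicate 1), 1 to 2 in Dys vs WT (2 without WT replicate 1, Dys replicate 4 or Hyp replicate 4) and 0 to 2 in Hyp vs Dys (0 without Dys replicates 1, 2, 4 or 5 or Hyp replicates 1 or 6, and 2 without WT replicate 1 or Dys replicate 3). Without mitochondrial and hemoglobin genes in the total, the summed level was 18486 CPM in WT and 17066 CPM in Hyp, and 17412 CPM in Dys. The Actg1 share differed by -5.68 points between Dys and WT, and by -9.77 to 0.963 points with 1 library left out. Pairs with a read stayed between 95% and 100% with 1 library left out. Depth limits WT replicate 1 most, where a count of 0 allows 110 CPM.

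Of the 30 log2 fold changes of members, none of them called, 3 kept their sign under the 28 alternatives: Actb and Actg1 in Hyp vs WT and Actb in Hyp vs Dys. The cause of the other changes of sign was not tested. With the 6 crossed libraries exchanged, the sign changed in Hyp vs WT Myl9 0.067, Myl12a 0.15, Flna -0.56, Tln1 -0.18, in Dys vs WT Actb -0.14, Pfn1 -0.16, Myl12a -0.60, Flna 0.22, Tln1 0.48 and in Hyp vs Dys Actg1 0.094, Pfn1 0.13, Myl6 0.73, Myl12a 0.74, Flna -0.78, Tln1 -0.66. With the 9 libraries of matching numbers alone, the sign changed in Hyp vs WT Tpm4 -0.23, Flna -0.57, Tln1 -0.13, in Dys vs WT Actb -0.047, Pfn1 -0.048, Tpm4 -1.002, Myl12a -0.38 and in Hyp vs Dys Myl6 0.38, Myl12a 0.019. With DESeq2, the sign changed in Hyp vs WT Cfl1 0.27, Myl9 0.22 and in Hyp vs Dys Actg1 0.071. With TMMwsp, the sign changed in Dys vs WT Actb -0.0028, Cfl1 -0.093. Without TMM, the sign changed in Hyp vs WT Cfl1 0.27, Myl9 0.19 and in Hyp vs Dys Actg1 0.068. As ratios of mean CPM, the sign changed in Hyp vs WT Cfl1 0.27, Myl9 0.18 and in Hyp vs Dys Actg1 0.066. As such ratios with the 6 crossed libraries exchanged, the sign changed in Hyp vs WT Pfn1 0.26, Cfl1 0.081, Myl6 0.057, Myl9 0.24, Myl12a 0.33, Flna -0.37, Tln1 -0.24, in Dys vs WT Myl12a -0.51, Flna 0.22, Tln1 0.43 and in Hyp vs Dys Pfn1 0.046, Myl6 0.67, Myl12a 0.84, Flna -0.59, Tln1 -0.66. Without a filter on low counts, the sign changed in Dys vs WT Actg1 0.023. With the title series as a covariate, the sign changed in Dys vs WT Myl12a -0.26. Without the libraries under 500000 reads, the sign changed in Dys vs WT Actb -0.17, Pfn1 -0.20, Cfl1 -0.55, Tpm4 -0.15, Myl12a -0.062 and in Hyp vs Dys Actg1 0.18, Cfl1 0.089. With each library left out in turn, the values that changed sign ran in Hyp vs WT Cfl1 -0.80 to 0.12, Tpm4 -0.040 to 0.86, Myl9 -0.40 to 0.0029, in Dys vs WT Actb -0.19 to 0.45, Actg1 -0.43 to 0.10, Pfn1 -0.20 to 0.70, Cfl1 -0.55 to 0.34, Tpm4 -0.15 to 0.78, Myl6 -0.75 to 0.10, Myl9 -0.60 to 0.052, Myl12a -0.060 to 0.34, Tln1 -0.91 to 0.022 and in Hyp vs Dys Tpm4 -0.13 to 0.49, Myl6 -0.61 to 0.075, Myl9 -0.11 to 0.42.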

Other observations

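Markers of other cell types and of EVs were read in the same libraries (mean ± SD CPM, n = 15, edgeR's adjusted test for calls). The tetraspanin gene Cd9 was abundant at 12205 ± 7613 CPM, ranging from 3924 to 33354 CPM, while Cd81, another EV marker, had 170 ± 187 CPM and was at 0 reads in 4 libraries. The leukocyte genes Lyz2, which encodes lysozyme, and Cd74, which serves antigen presentation, had 1185 ± 831 and 593 ± 445 CPM and were read in 15 of 15 libraries. The alpha-globin gene Hba-a1 had 15040 ± 8203 CPM. Among the relatives of the members, Dstn, which acts like cofilin, had 326 ± 230 CPM and Tpm3 289 ± 339 CPM, each with libraries at 0. The liver gene Alb was read in 7 of 15 libraries and reached 797 CPM in Hyp, 156 CPM in Dys and 4.99 CPM in WT, and Apoa2 was read in 5 libraries. Tagln of smooth muscle was read in 7 libraries with at most 516 CPM, and Tnnc2 of skeletal muscle in 3 with at most 94.2 CPM. None of these genes was called in any of the 3 comparisons.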
